A study of Mus musculus with 4 samples.

Results

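Type 2 conventional dendritic cells (cDC2) of the inflamed spinal cord were taken from single-cell RNA profiles of sorted CD45+ leukocytes. They were chosen by raw counts of unique molecular identifiers (UMIs, one per captured transcript). A cell was a member with at least 1 UMI each of Flt3 and Cd209a and at least 20 of Cd74. It also needed no UMI of Xcr1, Clec9a or Cd3e, under 3 of Siglech, S100a8 plus S100a9 under 5% of its UMIs, and not both Ccr7 and Fscn1 at 3 or more. Of 28598 kept cells, 72 met this rule. C57BL/6 mice with experimental autoimmune encephalomyelitis (EAE), an autoimmune disease model of brain and spinal cord, had received Reg1-MOs or Ctrl MO into the cranium 9 days after immunisation. Their spinal cord leukocytes were sorted on day 16. The Reg1-MO libraries 1 and 2 held 29 and 18 members, and the Ctrl MO libraries 1 and 2 held 16 and 9. All animals were immunised, so no healthy cord was compared. How many animals made up a library is not given in the sources used here, so the p-values below measure only the spread between these libraries.

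Dendritic cells take up antigen and show it to T cells on MHC molecules. The type 2 conventional kind mainly presents to CD4 T cells through MHC class II, while the type 1 kind (cDC1) is known for presenting taken-up antigen to CD8 T cells. Both kinds depend on the growth factor receptor Flt3, and monocytes that enter inflamed tissue can come to carry many of the same transcripts. In EAE, dendritic cells within the central nervous system are known to restimulate the T cells that enter it. The labels spell out neither abbreviation. MO is taken to mean morpholino, an antisense oligonucleotide, and Reg1 to mean Regnase-1, the RNase encoded by Zc3h12a that degrades inflammatory mRNAs.

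The members' depth differed less between libraries than their number did. Their median was 11451 and 14894.5 UMIs per cell in the Reg1-MO libraries and 12367.5 and 9701 in the Ctrl MO libraries, and their summed UMIs were 372340 and 303336 in the Reg1-MO libraries and 219727 and 106625 in the Ctrl MO libraries. Ctrl MO library 2, with 9 cells, was the thinnest. There were 4 members with over 30000 UMIs, 2 in each Reg1-MO library and none in either Ctrl MO library, so results below are also given without them where they move. Cells with S100a8 and S100a9 at 5% of UMIs or more, mostly neutrophils by these genes, made up 5.38% and 19.9% of the kept Reg1-MO cells and 25.3% and 37.1% of the kept Ctrl MO cells, which changes the total that any share is read against. Pairs of libraries shared 10 to 75 cell barcodes, and no barcode was a member in 2 libraries.

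The label was checked against genes that the rule did not use. Values here are UMIs of the summed class scaled to a total of 1000000 (CPM), averaged over the 4 libraries, and they describe the gate, without a test. Clec10a, a galactose-binding lectin typical of cDC2, stood at 251.8 CPM in cDC2, 19.7 in cDC1 and 161 in plasmacytoid dendritic cells. It was seen in 55 of 72 members, and in 1.02% to 3.05% of T cells per library, a type that should lack it, whose median depth was 7558 to 8229 UMIs. Ccr2, the receptor that draws cells toward Ccl2, stood at 720.0 CPM in cDC2, 145 in cDC1 and 255 in macrophages. It is also on the monocyte list used below, so it does not set cDC2 apart from monocytes. Napsa, an aspartic protease, stood at 773 CPM in cDC2, 426 in cDC1 and 417 in plasmacytoid dendritic cells. Mgl2, a lectin related to Clec10a, was lower but present, with UMIs in 9 of 72 members.

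The marker Plet1, a surface protein, went against the label. It was seen in 3 of 72 members and averaged 10.9 CPM in cDC2, against 302 CPM in cDC1. H2-DMb2, a chain of the chaperone that loads peptides onto MHC class II, was seen in 32 of 72 members and averaged 217 CPM in cDC2 and 219 CPM in cDC1, so it did not separate the 2 kinds. Reads of H2-DMb2 can be shared with its close copy H2-DMb1, which makes its level uncertain. Esam, known from a splenic subset of cDC2, had no UMI in any of the 72 members, which allows a share of cells with a UMI of up to 4.17%. Of the 26 listed cDC2 identity genes, the rule's own genes among them, 9 had their highest mean in cDC2 among the 6 classes compared. Another 5 had it in migratory dendritic cells, 4 in cDC1, 3 in macrophages and 3 in T cells. Of the genes outside the rule, Clec10a, Ccr2, Napsa and Mgl2 were among those with their highest mean in cDC2. Others peaked elsewhere, with Sirpa and Itgam highest in macrophages, Irf4 in T cells and Zbtb46 in migratory dendritic cells. Plet1 and H2-DMb2 were highest in cDC1, and Esam had no UMI in cDC2.

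**Figure D1:**
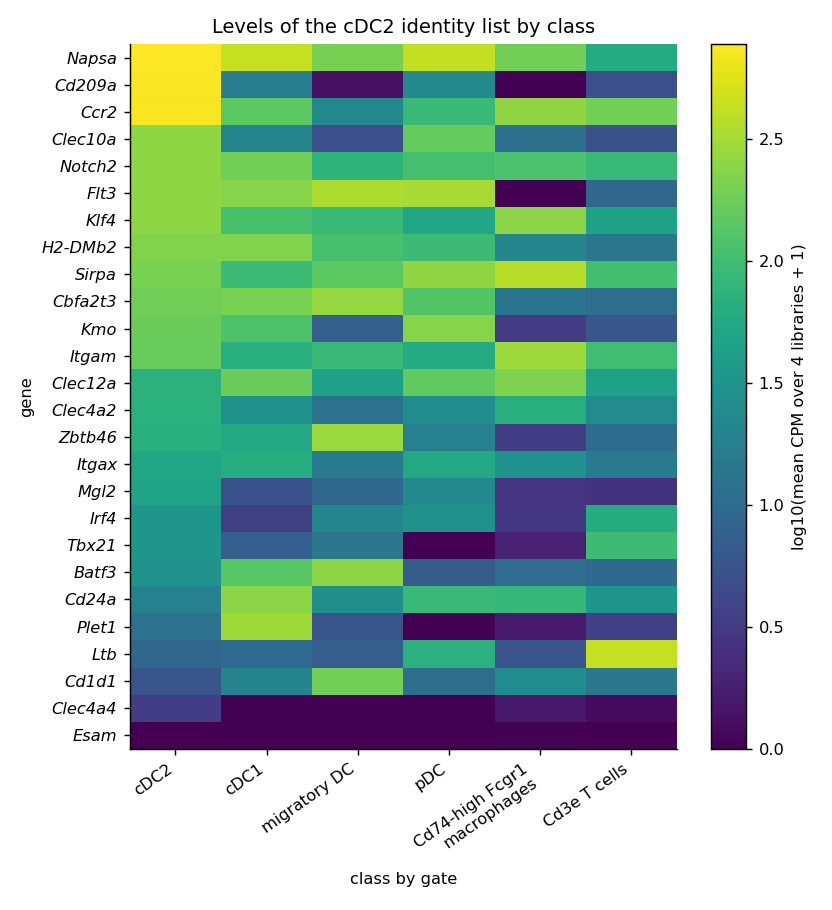
Mean level of each gene of the cDC2 identity list (rows, sorted by their level in cDC2) in 6 classes set by raw-count gates (columns), as log10 of the mean CPM over 4 libraries plus 1. Napsa, Cd209a, Ccr2 and Clec10a are brightest in cDC2, while Plet1 is brightest in cDC1, at 302 CPM.

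In genome build mm10, with gene positions from GENCODE M21, Cd209a lies on chromosome 8 from 3743397 to 3748984, Flt3 on chromosome 5 from 147330741 to 147400489, Plet1 on chromosome 9 from 50494525 to 50505482 and H2-DMb2 on chromosome 17 from 34143307 to 34151555. Zc3h12a lies on chromosome 4 from 125118423 to 125127840. All 5 are protein-coding genes.

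Markers of other cell types differed widely in level in the members, given here as sums over each list. The summed T cell markers reached 45.7 and 3.30 CPM in the Reg1-MO libraries and 50.1 and 0 CPM in the Ctrl MO libraries. Of 8 B cell markers, 5 had no UMI in any library, Cd79a and Ms4a1 among them, and the sum of the 8 was 48.3 and 115 CPM in the Reg1-MO libraries and 81.9 and 244 CPM in the Ctrl MO libraries. The 10 plasmacytoid dendritic cell markers, of which 3 had none, summed to 720 and 748 CPM in the Reg1-MO libraries and 664 and 375 CPM in the Ctrl MO libraries. The 10 cDC1 markers summed to 782 and 570 CPM in the Reg1-MO libraries and 655 and 338 CPM in the Ctrl MO libraries, with Xcr1 and Clec9a held at 0 by the rule. The 12 migratory dendritic cell markers summed to 696 and 725 CPM in Reg1-MO and 760 and 122 CPM in Ctrl MO. The 10 neutrophil markers summed to 462 and 818 CPM in Reg1-MO and 824 and 638 CPM in Ctrl MO, with Ly6g, Cxcr2 and Mmp9 at 0. The 9 microglia markers summed to 368 and 320 CPM in Reg1-MO and 237 and 385 CPM in Ctrl MO, and the 8 natural killer cell markers to 430 and 300 CPM in Reg1-MO and 246 and 93.8 CPM in Ctrl MO. Their part in the results was not tested. The highest sums were those of monocyte genes. The 10 monocyte markers summed to 6196 and 10760.3 CPM in the Reg1-MO libraries and 8128 and 12483 CPM in the Ctrl MO libraries. In T cells they summed to 5893 and 3727 CPM in Reg1-MO and 6174 and 6457 CPM in Ctrl MO. Lyz2, the lysozyme of myeloid cells, had UMIs in 62 of 72 members, and its level ranged from 0 to 446 UMIs per cell.

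The 72 members were not uniform in Lyz2. A limit of 50 UMIs, chosen after the values were seen, set apart 20 cells, which were 3 of 29 and 8 of 18 in the Reg1-MO libraries and 4 of 16 and 5 of 9 in the Ctrl MO libraries. Among these 20 cells, 14 had UMIs of Adgre1, which encodes the macrophage antigen F4/80. Among the other 52 cells 4 had them. Zbtb46, a transcription factor of conventional dendritic cells, ran the other way, with UMIs in 2 of the 20 and 28 of the 52. H2-DMb2 was seen in 5 of the 20 and 27 of the 52, and Cd7 in 3 of the 20 and 33 of the 52. Other genes separated the sets less. Fcgr1 was seen in 13 of the 20 and 27 of the 52, and C1qa in 6 of the 20 and 12 of the 52. Clec10a was seen in 15 of the 20 and 40 of the 52. Ccr2 was seen in 20 of the 20 and 43 of the 52, with medians of 14.5 and 4 UMIs. The median depth was 12097 UMIs per cell in the 20 and 12101.5 in the 52, and the median Cd209a count was 4.5 in the 20 cells and 8.5 in the 52. The set with high Lyz2 was thus found in both treatments, and it took the largest part of the members in Ctrl MO library 2.

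**Figure D2:**
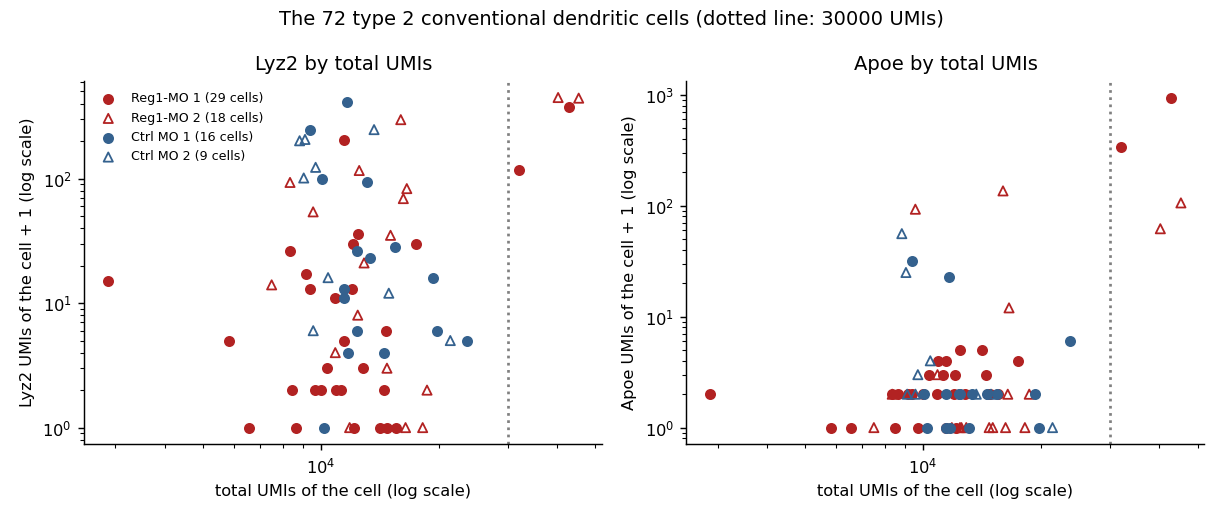
Each of the 72 members is a point, with its total UMIs on the x axis and its Lyz2 (left) or Apoe (right) UMIs plus 1 on the y axis, all on log scales. The 4 cells right of the dotted line at 30000 UMIs are all from Reg1-MO libraries and all have over 100 Lyz2 UMIs, and 2 of them hold 943 and 340 Apoe UMIs.

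Other genes that vary within cDC2 were counted per cell. Il1b, an inflammatory cytokine, was seen in 28 of 29 and 16 of 18 Reg1-MO members and 14 of 16 and 5 of 9 Ctrl MO members. T cells, given for comparison, had Il1b UMIs in 37.4% and 22.5% of Reg1-MO cells and 26.2% and 12.1% of Ctrl MO cells. They were gated by Cd3e alone with doublets left in. What part of such UMIs is free RNA and what part comes from doublets was not tested. Cxcl9, a chemokine induced by interferon-gamma that attracts T cells, was seen in 15 of 29 and 2 of 18 Reg1-MO members and in 4 of 16 and 0 of 9 Ctrl MO members, so most of its cells came from 1 library. After every cell was thinned to 3000 UMIs these counts were 11 of 28 and 1 of 18 in Reg1-MO and 4 of 16 and 0 of 9 in Ctrl MO. T cells had Cxcl9 UMIs in 15.9% and 5.84% of Reg1-MO cells and 5.50% and 1.12% of Ctrl MO cells. The count of 2 of 18 is thus not clearly above the T cell share. The chemokines Ccl17 and Ccl22, typical of mature dendritic cells, were seen in 11 and 10 of the 72 members. Il12b, which encodes the p40 subunit shared by IL-12 and IL-23, had no UMI in any of the 72.

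The share of cDC2 among kept cells was compared to ask whether the infiltrate held more of them after Reg1-MO. The members made up 0.3328% and 0.348% of the cells in the Reg1-MO libraries, and 0.198% and 0.136% in the Ctrl MO libraries. The groups did not overlap, and the means of 0.340% ± 0.011 and 0.167% ± 0.044 (SD, n = 2 each) differ 2.04-fold. The two-sided exact permutation test gave p = 0.33, the smallest that 2 against 2 libraries allow. The 95% Wilson intervals, which cover counting error only, ran from 0.232% to 0.477% and 0.220% to 0.550% in the Reg1-MO libraries and from 0.122% to 0.321% and 0.0714% to 0.258% in the Ctrl MO libraries, so single libraries overlapped across groups. Among cells outside the S100a8 and S100a9 gate, the shares were 0.352% and 0.435% in the Reg1-MO libraries and 0.265% and 0.216% in the Ctrl MO libraries, a ratio of 1.64 (exact permutation p = 0.33).

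This share depended on both gate genes, in opposite directions. Cells that missed the rule by Flt3 alone numbered 33 and 30 in the Reg1-MO libraries and 4 and 2 in the Ctrl MO libraries. Those that missed it by Cd209a alone numbered 102 and 43 in the Reg1-MO libraries and 118 and 136 in the Ctrl MO libraries. Members with exactly 1 Flt3 UMI numbered 12 of 29 and 6 of 18 in the Reg1-MO libraries and 2 of 16 and 0 of 9 in the Ctrl MO libraries. The Reg1-MO members thus sat closer to the Flt3 threshold. Over the 4 libraries, the 69 cells that missed only Flt3 had 270.4 CPM of Clec10a and 534 of Napsa, and the 20 members with 1 Flt3 UMI had 278 and 643. With at least 2 UMIs asked of both Flt3 and Cd209a, the share was 0.172% and 0.232% in the Reg1-MO libraries and 0.136% and 0.136% in the Ctrl MO libraries. Without the Flt3 criterion it was 0.711% and 0.928% in the Reg1-MO libraries and 0.247% and 0.166% in the Ctrl MO libraries. Without the Cd209a criterion the order turned, with 1.503% and 1.18% in the Reg1-MO libraries and 1.66% and 2.19% in the Ctrl MO libraries. The 399 cells this adds had 37.8 CPM of Clec10a and 1537 CPM of C1qa, a complement gene of macrophages. The difference in means was 0.174 percentage points by the rule itself, 0.0662 with the stricter gate, 0.613 without the Flt3 criterion and -0.581 without the Cd209a criterion. With every cell thinned to 3000 UMIs before the gates, it was 0.0616 percentage points.

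**Figure D3:**
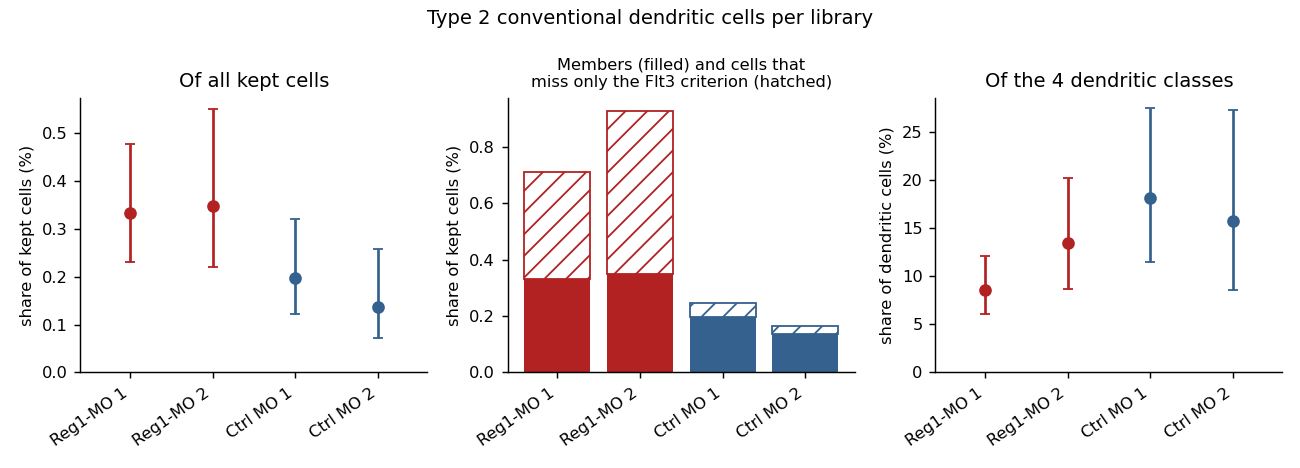
Share of cDC2 per library among all kept cells (left, points with 95% Wilson intervals), with the cells that miss only the Flt3 criterion stacked on the members (middle), and among the cells of 4 dendritic classes (right, points with Wilson intervals). Reg1-MO libraries sit at 0.3328% and 0.348% on the left, above Ctrl MO at 0.198% and 0.136%, and below Ctrl MO on the right.

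Within the dendritic cells the order under the rule was the other way round. The 4 dendritic classes were cDC2, cDC1, migratory and plasmacytoid dendritic cells, and the members were 8.61% and 13.4% of their cells in the Reg1-MO libraries, and 18.2% and 15.8% in the Ctrl MO libraries, a difference of -5.97 percentage points (exact permutation p = 0.33). Without the Flt3 criterion the shares overlapped, at 16.8% and 29.3% in the Reg1-MO libraries and 21.7% and 18.6% in the Ctrl MO libraries (difference 2.82, exact permutation p = 1). The other classes had larger ratios of Reg1-MO to Ctrl MO in their share of kept cells, 3.45 for cDC1, 4.53 for migratory dendritic cells and 3.19 for plasmacytoid dendritic cells, against 2.04 for cDC2. These ratios share one total per library and were not tested against each other. Members with at least 2 UMIs of Mki67 plus Top2a, both made by dividing cells, were 3 of 29 and 1 of 18 in the Reg1-MO libraries and 2 of 16 and 1 of 9 in the Ctrl MO libraries (difference -3.86 percentage points, exact permutation p = 0.33).

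Transcript levels were then compared within cDC2 to ask what differed between the treatments in the members themselves. No gene passed the threshold. UMIs were summed per library, and edgeR's quasi-likelihood test at a Benjamini-Hochberg adjusted p under 0.05 called 0 of 4140 genes (0% called), with 287 genes, or 6.93%, at an unadjusted p under 0.05. DESeq2 called 1 gene lower and none higher. Of all genes tested, 20.6% had both Reg1-MO libraries above both Ctrl MO libraries and 20.7% had both below, 41.3% together. The genes below were named by smallest unadjusted p and are described by their levels, as normalised CPM per library (scaled by edgeR's TMM factors), and none of them was called. Each adjusted p is from edgeR unless DESeq2 is named.

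Zc3h12a stood at 77.2 and 77.7 CPM in Reg1-MO cDC2 and at 80.5 and 20.7 CPM in Ctrl MO cDC2. The low value is that of Ctrl MO library 2, which rests on 2 UMIs in 1 cell, and the groups overlapped. The log2 fold change was 0.43 ± 0.55 (SE; adjusted p = 0.880), and -0.068 without Ctrl MO library 2. Since the mode of action of the Reg1-MOs is not given in the sources used here, this level does not check the treatment.

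Among the genes with higher levels in Reg1-MO cDC2, Cxcl2, a chemokine for neutrophils and a listed Regnase-1 target, had the smallest p. It had 392 and 162 CPM in the Reg1-MO libraries, against 5.03 and 0 CPM in the Ctrl MO libraries. Its UMIs were in 8 of 29 and 8 of 18 Reg1-MO members and in 1 of 16 and 0 of 9 Ctrl MO members. The 178 UMIs in Reg1-MO and 1 UMI in Ctrl MO give a ratio of 86.0 with an exact counting interval of 15.2 to 3415 (edgeR adjusted p = 0.689), and a single cell held 66% of the UMIs of Reg1-MO library 1. Maml2, a coactivator of Notch signalling, had 113 and 113 CPM in the Reg1-MO libraries and 15.1 and 10.4 CPM in the Ctrl MO libraries. Fth1, the heavy chain of the iron store ferritin, was seen in all 72 members and had 7882 and 9888 CPM in the Reg1-MO libraries and 4798 and 2901 CPM in the Ctrl MO libraries. Its log2 fold change of 1.20 ± 0.27 (adjusted p = 0.689) was 0.62 without the 4 cells over 30000 UMIs.

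The other genes named in that direction were Ccl5, a T cell chemokine, Chil3, a lectin of myeloid cells, Tpi1, a glycolytic enzyme, Cstb, a cathepsin inhibitor, Lst1 and Smox, a spermine oxidase. Their log2 fold changes lay between 1.64 and 3.87, each with an adjusted p of 0.689. Ccl5 had 389 and 124 CPM in the Reg1-MO libraries and 25.2 and 10.4 CPM in the Ctrl MO libraries, but 94% of its UMIs in Reg1-MO library 2 came from 1 cell. Chil3 had 166 and 579 CPM in the Reg1-MO libraries and 15.1 and 41.4 CPM in the Ctrl MO libraries. Tpi1 had 235 and 268 CPM in the Reg1-MO libraries and 90.6 and 51.8 CPM in the Ctrl MO libraries. It was seen in more cells, 16 of 29 and 13 of 18 Reg1-MO members and 11 of 16 and 4 of 9 Ctrl MO members. Still, 1 cell held 54% of its UMIs in Reg1-MO library 2. Without the 4 cells over 30000 UMIs, Cxcl2, Ccl5 and Chil3 had too few UMIs to be tested, and Tpi1 had a log2 fold change of 1.04.

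Among the genes with lower levels in Reg1-MO cDC2, Sult1a1, a sulfotransferase, had 2.97 and 0 CPM in the Reg1-MO libraries, against 116 and 290.1 CPM in the Ctrl MO libraries. The 1 UMI in Reg1-MO and 51 UMIs in Ctrl MO give a ratio of 106 in favour of Ctrl MO, with an exact counting interval of 18.1 to 4251. These UMIs came from 1 of 29 and 0 of 18 Reg1-MO members, and 6 of 16 and 8 of 9 Ctrl MO members. F13a1, a coagulation factor subunit made by monocytes and macrophages, had 119 and 194 CPM in the Reg1-MO libraries and 639 and 1554 CPM in the Ctrl MO libraries, a log2 fold change of -2.79 ± 0.52 (adjusted p = 0.689). It is the gene that DESeq2 called lower (log2 fold change -2.69, adjusted p = 0.0121). Ccl3, a chemokine for monocytes and T cells, had 89.1 and 127 CPM in the Reg1-MO libraries and 443 and 715 CPM in the Ctrl MO libraries (log2 fold change -2.41 ± 0.39). A single cell held 58% of its UMIs in Reg1-MO library 2, as did another for 52% in Ctrl MO library 2.

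Sgms1, which makes sphingomyelin, had 146 and 159 CPM in the Reg1-MO libraries and 473 and 466 CPM in the Ctrl MO libraries. A single cell held 61% of its UMIs in Ctrl MO library 1. Cblb, a ubiquitin ligase that restrains lymphocyte activation, had 71.3 and 84.8 CPM in the Reg1-MO libraries and 242 and 311 CPM in the Ctrl MO libraries, and was seen in 12 of 29 and 11 of 18 Reg1-MO members and in 9 of 16 and 9 of 9 Ctrl MO members. Zbtb16, a transcription factor, had 2.97 and 14.1 CPM in the Reg1-MO libraries and 70.5 and 259 CPM in the Ctrl MO libraries. The remaining genes of this direction were Gfod1, Mkrn1, Deptor, an inhibitor of mTOR, and Arhgef18, with log2 fold changes between -2.40 and -1.37 and an adjusted p of 0.689 each. For Gfod1, a single cell held 83% of the UMIs of Ctrl MO library 2. All 10 lower genes had a fold change of the same sign without the 4 cells over 30000 UMIs. Their sign without any 1 library is no check, because they were named for groups that do not overlap.

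**Figure D4:**
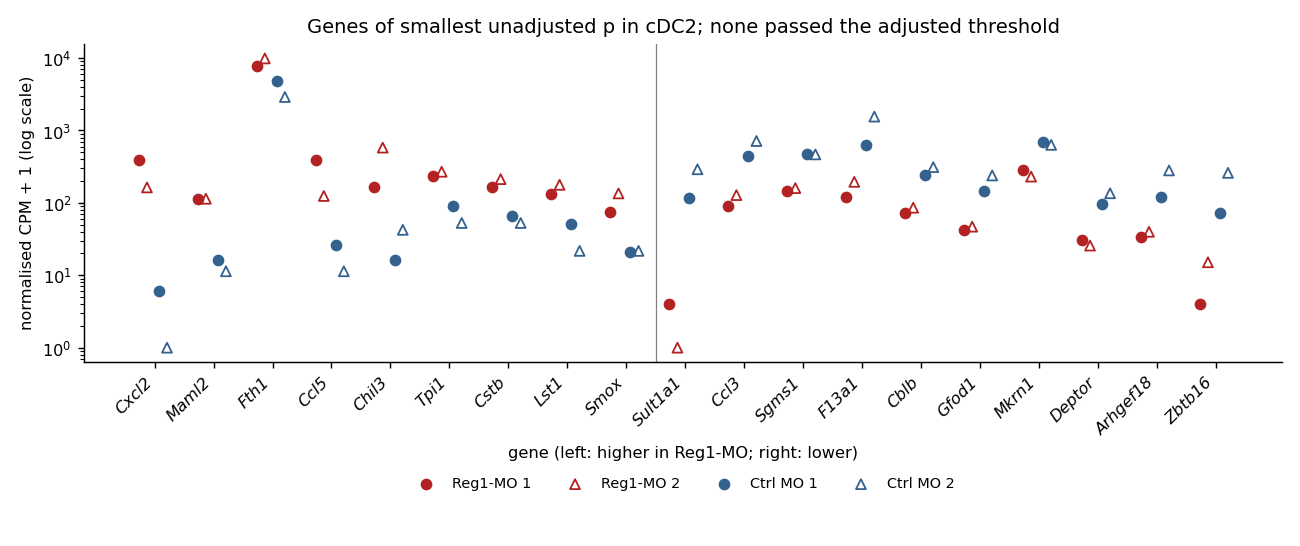
Normalised CPM plus 1 (log scale) of 9 genes with higher and 10 with lower levels in Reg1-MO cDC2 that had the smallest unadjusted p, with 1 point per library. Reg1-MO and Ctrl MO libraries do not overlap for any of them, as the naming rule asked, and each has an adjusted p of 0.689.

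Gene lists of dendritic cell function are given by counts and medians, and no list holds a called gene. Over all genes tested outside the rule, the median log2 fold change was 0.00, and 852 of 4135 had both Reg1-MO libraries higher. MHC class II genes present antigen to CD4 T cells. H2-Aa, a class II chain, had 7401 and 7564 CPM in the Reg1-MO libraries and 7904 and 4589 CPM in the Ctrl MO libraries, with overlap, and 3 of 8 tested members of the list were higher without overlap (6 above 0, median 0.29). MHC class I and peptide loading genes were above 0 in 12 of 12, with a median of 0.68 and 8 without overlap, and a median of 0.19 without Ctrl MO library 2 (11 of 13 above 0). H2-K1 had 2100 and 1946 CPM in the Reg1-MO libraries and 1550.5 and 974 CPM in the Ctrl MO libraries (log2 fold change 0.67 ± 0.27, adjusted p = 0.697), and its reads can be shared with H2-D1. Costimulatory and coinhibitory ligands had a median of 0.73 over 8 genes. Cd86, which signals to CD28 on T cells, had 1607 and 1176 CPM in the Reg1-MO libraries and 1400 and 549 CPM in the Ctrl MO libraries, with overlap.

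Interferon-gamma response genes were above 0 in 14 of 14 (median 0.89, 5 without overlap) and type I interferon response genes in 10 of 10 (median 1.04, 3 without overlap). Without Ctrl MO library 2 the medians were 0.23 for interferon-gamma, with 11 of 17 above 0, and 0.65 for type I interferon, with 16 of 16 above 0. Without Reg1-MO library 1 they were 0.38 and 0.45. Cxcl10, an interferon-induced T cell chemokine, had 2774 and 240 CPM in the Reg1-MO libraries and 1037 and 20.7 CPM in the Ctrl MO libraries, so the libraries numbered 1 were higher in both groups. Bst2, an antiviral membrane protein, had 496 and 378 CPM in the Reg1-MO libraries and 363 and 166 CPM in the Ctrl MO libraries.

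The lowest values of several inflammatory genes were those of Ctrl MO library 2. Il1b had 3504 and 3097 CPM in the Reg1-MO libraries and 3609.5 and 114 CPM in the Ctrl MO libraries. Per cell, its median was 20 and 39 UMIs in Reg1-MO members, and 29.5 and 1 UMI in Ctrl MO members. The log2 fold change of 0.80 ± 1.13 (adjusted p = 0.888) was 4.89 without Ctrl MO library 1, where it passed the test (adjusted p = 0.0121) with a single Ctrl MO library of 9 cells, assumed to vary like the Reg1-MO libraries, and -0.14 without Ctrl MO library 2. Rel, an NF-kB subunit and listed Regnase-1 target, had 680 and 470 CPM in the Reg1-MO libraries and 911 and 145 CPM in the Ctrl MO libraries. The 19 NF-kB genes had a median of 0.24 with 0 higher without overlap, and the 7 tested Regnase-1 targets a median of 0.43 with 2 higher without overlap.

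Glycolysis and hypoxia genes were above 0 in 16 of 17, with a median of 0.65 and 11 higher without overlap. Without the 4 cells over 30000 UMIs they were above 0 in 9 of 16, with a median of 0.05. Gapdh had 1304 and 1720 CPM in the Reg1-MO libraries and 1364 and 1233 CPM in the Ctrl MO libraries. Antigen processing proteases and the macrophage list moved with the same cells. The proteases' median was 0.27 with all members and -0.25 without these 4. Ctss, the protease that trims the class II chaperone Cd74, had 2643 and 2408 CPM in the Reg1-MO libraries and 1707 and 1119 CPM in the Ctrl MO libraries (log2 fold change 0.83 ± 0.25, adjusted p = 0.689, and 0.45 without these cells). By contrast the medians of the type I interferon list (1.11), the interferon-gamma list (0.81), MHC class I (0.56) and heat shock genes (0.41, against 0.43 with all members) stayed close to their values with all members.

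Macrophage markers were the list with the highest median, 2.59 over 9 tested genes, of which 8 were above 0 and without overlap. Summed over 13 markers, they reached 5680 and 2265 CPM in Reg1-MO cDC2 and 728 and 1088 CPM in Ctrl MO cDC2. Without the 4 cells over 30000 UMIs the sums were 601 and 1818 CPM in Reg1-MO and 728 and 1088 CPM in Ctrl MO, which overlap. In T cells, gated by Cd3e alone with doublets left in, the same 13 markers summed to 7909 and 3169 CPM in Reg1-MO. They summed to 4602 and 4434 CPM in Ctrl MO T cells, so the T cell sum was above that of cDC2 in every library. What part of the T cell sum is free RNA and what part comes from doublets was not tested. Apoe, a lipid carrier of macrophages, had 3920.1 and 1444 CPM in the Reg1-MO libraries and 332 and 912 CPM in the Ctrl MO libraries, and 1 cell held 71% of the UMIs of Reg1-MO library 1. Its log2 fold change of 2.14 ± 0.63 (adjusted p = 0.689) was 0.11 without these cells. No doublet score placed these 4 cells among those removed by Scrublet, and their part in each gene's result beyond the values given here was not tested.

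Cell cycle genes were below 0 in 5 of 5 tested (median -1.33, 2 without overlap). Without cycling cells 2 of 3 were below 0 (median -0.38), and without Ctrl MO library 2 it was 2 of 5 (median 0.28). Tubb5, a tubulin, had 258 and 360.2 CPM in the Reg1-MO libraries and 448 and 1129 CPM in the Ctrl MO libraries, where 1 cell held 74% of the UMIs of Ctrl MO library 2. Its log2 fold change of -1.33 ± 0.48 (adjusted p = 0.697) lay between -1.84 and -0.55 when 1 library was left out. Immediate early genes were below 0 in 10 of 12 (median -0.23), with Junb at 1503 and 1377 CPM in the Reg1-MO libraries and 1530.4 and 1958 CPM in the Ctrl MO libraries. Of the cDC2 identity genes outside the rule, 7 were above 0 and 9 below (median -0.07). Clec10a had 400.9 and 360.2 CPM in the Reg1-MO libraries and 206 and 135 CPM in the Ctrl MO libraries (log2 fold change 1.12 ± 0.34, adjusted p = 0.689), and Napsa was nearly level, with 873 and 848 CPM in the Reg1-MO libraries and 946 and 725 CPM in the Ctrl MO libraries. Of the genes the rule used, Flt3 had 196 and 177 CPM in the Reg1-MO libraries and 332 and 394 CPM in the Ctrl MO libraries, and Cd209a had 1197 and 756 CPM in the Reg1-MO libraries and 690 and 601 CPM in the Ctrl MO libraries, as a description only.

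Whether cDC2 responded unlike other antigen-presenting cells was asked against macrophages gated by Cd74, Fcgr1 and Lyz2, 2765 cells in all. The treatment effect in cDC2 minus that in macrophages differed for 31 of 11030 genes, or 0.281%, in edgeR's interaction test with the library as a block, 24 with a higher and 7 with a lower effect in cDC2. For each gene this test fits 1 spread to both classes. The cDC2 sums hold 9 to 29 cells and the macrophage sums 427 to 1245. A wider spread of the cDC2 sums was not allowed for, so its p-values may be too small. In the macrophages alone 0 of 11390 genes were called (0% called), with 1829 at an unadjusted p under 0.05. Of 13 macrophage markers, 7 were among the 24, and none of the 13 was called without the 4 cells over 30000 UMIs. That setting gave 26 calls, 12 higher and 14 lower, of which 11 were among the 31.

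Cxcl2, Maml2, F13a1 and Ccr2 were among the 11 genes called both with and without these 4 cells. Maml2 differed by 3.72 ± 0.61 (interaction test, adjusted p = 0.000175), and by 3.42 without the 4 cells (adjusted p = 0.00033). It had 3 and 1 UMIs in Ctrl MO cDC2. With 1 library left out, the difference lay between 3.33 and 4.47 for Maml2 and between 5.32 and 12.8 for Cxcl2. These fits kept those of the 4 cells that were in the remaining libraries. Cxcl2 had 1334 and 1595 CPM in Reg1-MO macrophages and 1375 and 915 CPM in Ctrl MO macrophages, which overlapped, beside 392 and 162 CPM in Reg1-MO cDC2 and 5.03 and 0 CPM in Ctrl MO cDC2. Its difference in effect was 6.13 ± 0.78 on the log2 scale (adjusted p = 5.62e-07), and 3.86 without the 4 cells (adjusted p = 0.0247). In cDC2 alone Cxcl2 was not called (edgeR adjusted p = 0.689), and without the 4 cells it had too few UMIs to be tested there. Its Ctrl MO level in cDC2 rests on 1 UMI, so the size of this difference is uncertain. F13a1 had 501 and 461 CPM in Reg1-MO macrophages and 709 and 839 CPM in Ctrl MO macrophages, lower in Reg1-MO as in cDC2 but by less. Its difference was -1.85 ± 0.38 (adjusted p = 0.00647), and -1.45 without Reg1-MO library 1, where it was not called (adjusted p = 0.664). Ccr2 had 297 and 452 CPM in Reg1-MO macrophages and 186 and 88.8 CPM in Ctrl MO macrophages, against 401 and 802 in Reg1-MO cDC2 and 639 and 1316 in Ctrl MO cDC2. The difference was -2.03 ± 0.41 (adjusted p = 0.00502) and -1.97 without the 4 cells (adjusted p = 0.000289). It was not called without Ctrl MO library 2 (-1.09, adjusted p = 0.215) or without Reg1-MO library 1 (-1.84, adjusted p = 0.149).

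**Figure D5:**
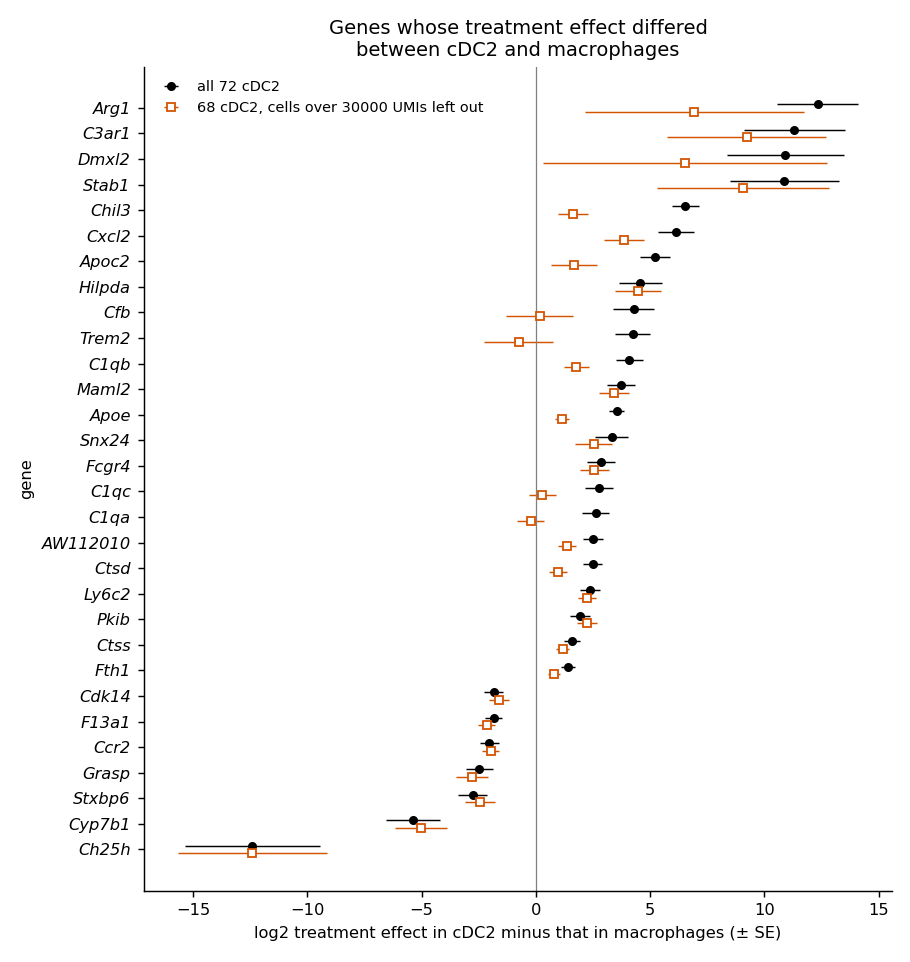
For 30 of the 31 genes called in the interaction test, the log2 treatment effect in cDC2 minus that in macrophages is plotted with its standard error, for all 72 cDC2 (black) and for the 68 of at most 30000 UMIs (orange). C1qa and Trem2 cross to below 0 without those cells, while Cxcl2, Maml2, Ccr2 and F13a1 keep their sign and their call without those cells.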

How the data were processed

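The deposited files are 4 matrices of UMI counts, with 1 row per gene and 1 column per barcode. Per the file headers, Cell Ranger 5.0.1 wrote them. Libraries were 10x Genomics 3' v3, per the labels' protocols, and the submitters' processing notes list mm10 and Seurat 4.0 without a role. The counts held 75472324 to 174552218 UMIs per library.

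Barcodes under 500 UMIs or 200 genes, or with over 10% of UMIs from mitochondrial genes, were dropped. The members, the gene lists and the tests were chosen with earlier results of these data known. UMIs were summed per library and tested with edgeR 4.0.16 (R 4.3.3; TMM, filterByExpr with a minimum count of 10), with DESeq2 1.42.0 as the alternative. On simulated data with the cDC2 depths, 4-fold changes were recovered for 59.5% of changed genes and 2-fold changes for 0%, over 4140 genes. Shares were compared by two-sided exact permutation tests. Doublets were left in, and in 1 alternative the cells of highest Scrublet score (scanpy 1.11.5) were removed, up to 0.8% per 1000 barcodes, which took 2 members.

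Alternatives were each library left out, RLE size factors, no filter, a replicate block, a stricter gate, thinning to 3000 UMIs, a mitochondrial limit of 5%, S100a8 plus S100a9 under 1%, and cycling cells left out. Leaving out cells over 30000 UMIs, dropping the Flt3 or the Cd209a criterion and a stricter plasmacytoid gate were added after the data were seen. Other classes were gated on raw UMIs: cDC1 by Flt3 and at least 2 UMIs of Xcr1 plus Clec9a, migratory cells by 3 each of Ccr7 and Fscn1, plasmacytoid cells by 3 of Siglech with Tcf4, macrophages by Fcgr1, 5 of Lyz2 and no Flt3 or Cd209a. The plasmacytoid gate set no limit on S100a8 or S100a9. T cells were gated by Cd3e alone, with no limit on genes of other classes.

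Named genes were always Zc3h12a, Cd209a, Flt3, Plet1 and H2-DMb2. The rule then took 10 genes a direction, called ones first and otherwise those of smallest unadjusted p whose groups did not overlap and whose mean reached 50 CPM. It added the 2 members of highest mean of each list, the identity genes, and up to 10 interaction genes a direction. Predicted, mitochondrial, ribosomal, hemoglobin and antigen receptor genes were left out. Not every gene so chosen is printed, and 3 genes are not reported here.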

Additional observations from a re-analysis of the deposited data

Results flagged for a closer look

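The genes here had a treatment effect (Reg1-MO over Ctrl MO) that differed between cDC2 and macrophages in edgeR's interaction test, and they were picked out for that difference, given on the log2 scale as the effect in cDC2 minus that in macrophages. Most of the higher ones rest on few cells.

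Arg1, the arginase of alternatively activated macrophages, had 20 and 33 UMIs in Reg1-MO cDC2, in 3 and 2 cells, and none in Ctrl MO cDC2. Against the limit of 3 UMIs over the Ctrl MO group it was at least 8.53-fold higher in Reg1-MO, and its fitted difference of 12.34 is no bound. C3ar1, a complement receptor, had 26 and 5 UMIs in Reg1-MO and none in Ctrl MO, which makes it at least 4.99-fold higher (fitted difference 11.30). Dmxl2 had 4 and 25 UMIs in Reg1-MO and none in Ctrl MO, at least 4.67-fold higher (fitted difference 10.91). The folds given for these 3 genes allow only for the counting of Ctrl MO UMIs. They leave out the spread between cells and between libraries, so they are no lower bounds on a treatment effect. Without the 4 cells over 30000 UMIs none of these 3 was called.

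Chil3 had 1891 and 873 CPM in Reg1-MO macrophages and 6290 and 10596 CPM in Ctrl MO macrophages (log2 fold change -2.61, not called). This lower level in macrophages is part of its difference of 6.53, which was 1.62 without the 4 cells (adjusted p = 1). Apoc2, an apolipoprotein, differed by 5.21 and Cfb, complement factor B, by 4.28, and neither was called without these cells, at 1.65 and 0.16. Trem2, a lipid-sensing receptor of microglia and macrophages, differed by 4.23, and by -0.75 without them. C1qb, a chain of complement C1q, differed by 4.10, and by 1.78 without them. Cxcl2 differed by 6.13 and Hilpda, a lipid droplet protein, by 4.57, and both were also called without the 4 cells, at 3.86 and 4.46. Hilpda was not called without Ctrl MO library 1 (adjusted p = 0.0648). Hilpda had 15 and 11 UMIs in Reg1-MO cDC2 and 0 and 1 UMI in Ctrl MO cDC2.

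On the lower side, Cyp7b1, an oxysterol hydroxylase, differed by -5.36, but 99% of its 87 UMIs in Ctrl MO library 1 came from 1 cell, and Ctrl MO library 2 had none. It was not called without Ctrl MO library 1 (adjusted p = 1) or without Reg1-MO library 2 (adjusted p = 0.615). Stxbp6 differed by -2.76, Grasp by -2.47, Ccr2 by -2.03, F13a1 by -1.85 and Cdk14 by -1.84. Of these 5, Grasp, Ccr2 and F13a1 were also called without the 4 cells. Grasp was not called without Ctrl MO library 2, Reg1-MO library 1 or Reg1-MO library 2 (adjusted p = 0.0883, 0.141 and 0.630), Ccr2 not without Ctrl MO library 2 or Reg1-MO library 1 (0.215 and 0.149), and F13a1 not without Reg1-MO library 1 (0.664).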

How the results depend on the processing

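The cDC2 share of all cells, 0.174 percentage points higher in Reg1-MO, stayed higher under the settings run, except without the Cd209a criterion. It was 0.0662 with at least 2 UMIs of Flt3 and Cd209a, 0.613 without the Flt3 criterion, -0.581 without the Cd209a criterion (both chosen after seeing the data) and 0.0616 after thinning to 3000 UMIs, and lay between 0.142 and 0.205 when 1 library was left out. Outside the neutrophil gate the difference of 0.153 was 0.0369 (exact permutation p = 1), 0.658, -1.32 and 0.0296 under the same settings in that order, and 0.111 to 0.194 without 1 library. The difference within dendritic cells was 2.82 without the Flt3 criterion, -37.9 without the Cd209a criterion, -10.2 after thinning and between -8.38 and -3.55 without 1 library, and that in cycle -7.98 with the stricter gate, -13.7 without the Cd209a criterion and between -6.25 and -1.46.

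Without the filter on low counts, edgeR called 97 genes of 12362 in cDC2, 67 higher and 30 lower, and the median of all genes was 0.14. DESeq2 called 1, and leaving out 1 library gave 0 to 1. With the replicate number as a block, 0 genes were called, with 360 at an unadjusted p under 0.05. The labels give shared replicate numbers but no shared animal or day. The deviations of same-numbered libraries from their group means had a correlation of 0.228. With 2 libraries a group, both pairs must give this same value, so it counts once. The interaction with macrophages gave 56 genes without the filter, and 29 to 177 without 1 library, the highest without Ctrl MO library 1 and 62 without Ctrl MO library 2. Interactions with cDC1 and migratory dendritic cells were not run, since they were planned only for 20 cells of each class in every library and 3 libraries held 18, 16 and 9 cDC2. The interaction with macrophages was planned with no such minimum.

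Of 800 pairs of a named gene and a setting, 30 changed sign, in 18 genes, none of them called under the rule. With a replicate block, H2-DMb2 was 0.19. With the stricter gate H2-DMb2 was 1.05, Gapdh -0.12 and Npc2 -0.095. Without cycling cells Zfp36 was -0.090, Rel -0.039 and Cxcl9 -0.20. Without the 4 cells over 30000 UMIs Zfp36 was -0.039 and Gapdh -0.10. When 1 library was left out, log2 fold changes ranged from -0.068 to 1.91 for Zc3h12a, -1.11 to 3.43 for H2-DMb2, -0.15 to 0.28 for Napsa, -0.091 to 0.74 for H2-Aa, -0.018 to 1.38 for Cd86, -0.27 to 1.08 for Cd83, -0.14 to 4.89 for Il1b, -1.20 to 6.20 for Cxcl10, -0.16 to 0.88 for Nfkbia, -0.094 to 0.99 for Nfkb1, -0.31 to 0.46 for Zfp36, -0.67 to 2.02 for Rel, -0.72 to 9.92 for Cxcl9, -0.74 to 0.44 for Pfkp, -1.31 to 0.24 for Fos and -2.75 to 6.98 for Cyp7b1. The cause was not tested. The depth of 106625 UMIs in Ctrl MO library 2 limits every gene comparison.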
